A study of Arabidopsis thaliana with 9 samples.

Results

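The 7 expansin and expansin-like genes described here are EXPA4 (AT2G39700), EXPA8 (AT2G40610), EXPA9 (AT5G02260), EXPA15 (AT2G03090), EXPA16 (AT3G55500), EXLA1 (AT3G45970) and EXLB1 (AT4G17030) of Arabidopsis thaliana. They were taken by symbol, each through the 1 probe set that the platform's annotation assigns to that gene alone, which gave 7 of the 22746 probe sets tested and 7 of the 13356 genes so annotated. Expression was measured on 9 Affymetrix arrays of inflorescence tips taken 33 days past germination, from untreated plants grown on soil in continuous light. There were 3 biological replicates of er-2, a mutant allele of the receptor kinase gene ERECTA (ER), 3 of epfl4 epfl6, which lacks the function of 2 genes for secreted peptide ligands of that receptor, and 3 of the wild type (WT). The labels give Col-0 as the background of all 3 genotypes, and they do not say how many plants went into a sample. Values are log2 signals from robust multi-array averaging (RMA), so a difference of 1 is 2-fold. Tests compared genotypes for the same probe set, and the level of a gene was not tested against that of another. Signals and spreads were set beside those of all probe sets to mark genes of low or variable signal. Patterns over the arrays were compared between genes only as deviations from each probe set's own mean.

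Expansins are secreted proteins that loosen the plant cell wall at acid pH without cutting its polymers, so that turgor can extend the cell. The α-expansins (EXPA) act on the cellulose and xyloglucan network of walls such as those of Arabidopsis, and the β-expansins (EXPB) form a sister family that in grasses includes pollen allergens. The expansin-like families A and B (EXLA, EXLB) share the protein architecture, but wall-loosening activity has not been established for them. The ER pathway promotes the elongation of stem internodes and pedicels, organs whose growth rests on wall extension. Of the 7 genes, 3 lie on chromosome 2, 2 on chromosome 3, and 1 each on chromosomes 4 and 5. ER and EPFL6 lie on chromosome 2 and EPFL4 on chromosome 4, and their own transcripts were not analysed here.

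Arrays of the same genotype correlated at 0.9945 to 0.9973 across probe sets. Control probe sets for RNA quality differed between the genotypes: the log2 excess of the 3′ over the 5′ signal of actin, GAPDH and ubiquitin transcripts was 2.08 to 2.22 in er-2, 1.61 to 1.72 in epfl4 epfl6 and 2.30 to 2.58 in WT. This index moved with genotype in every comparison below, and values from fits that include it are given after those without it. The log2 signal of the 25S ribosomal RNA control was 11.77 to 11.96 in er-2, 11.16 to 11.46 in epfl4 epfl6 and 11.81 to 11.86 in WT. That control entered none of the fits. Markers of other cell types moved as well. The mean log2 signal of the 5 measured of 10 anther and tapetum markers was 6.49 to 7.57 in er-2, 5.39 to 5.72 in epfl4 epfl6 and 7.59 to 8.23 in WT. For the 4 measured of 6 guard cell lineage markers it was 5.61 to 5.72 in er-2, 5.69 to 5.72 in epfl4 epfl6 and 4.98 to 5.19 in WT, and for the 3 measured of 4 photosynthesis markers 11.83 to 11.92 in er-2, 11.76 to 11.88 in epfl4 epfl6 and 11.43 to 11.55 in WT. The members did not move alike. Log2 differences of anther markers from WT, in er-2 and epfl4 epfl6, were −1.98 and −6.34 (ATA27) and −1.90 and −4.66 (SHT). EMS1 differed by −0.37 and −0.32, AMS by −0.36 and −0.40, and SPL by −0.27 in each. Guard cell genes differed by 1.13 and 1.15 (CHX20), 0.98 and 0.95 (FMA), 0.23 and −0.02 (SPCH), and 0.08 and 0.53 (MUTE). ATA27 and MUTE in er-2, and SPL and SPCH in both mutants, had a limma adjusted p over 0.05. The part of these tissues in the results was not tested, and in bulk tips a change in the number of cells of a type and a change of RNA per cell cannot be told apart. Of the labelled tissue's own markers, 1 of 10 floral organ genes was measured, UFO, at 3.44 to 3.77 over the 9 arrays, and 1 of 4 meristem genes, CLV3, which was under the lower quartile on each of the 9 arrays.

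EXLB1, EXPA9 and EXPA16 were called higher in er-2 and in epfl4 epfl6, EXPA8 in er-2, EXPA15 and EXPA4 in epfl4 epfl6, and EXLA1 was called lower in both mutants. For EXPA8 and EXPA4 the difference between the mutants did not pass the test (limma adjusted p = 0.162 and 0.289), and their calls were lost without certain single arrays. With the 3′ minus 5′ index in the fit, only EXLB1 and EXPA9 in er-2 were still called. In er-2 against WT, 4 of the 7 genes were called higher and 1 lower at a limma adjusted p under 0.05 over all probe sets. The share of the whole array called in that comparison was 11.8% higher and 9.01% lower, 20.8% in all. The 3 arrays of er-2 lay entirely above those of WT for 4 of the 7 genes and below them for 1, where 20.2% of probe sets lay above and 15.9% below, 36.1% in all. In epfl4 epfl6 against WT, 5 of 7 were called higher and 1 lower, against 17.9% and 16.0% of all probe sets, 33.9% in all. The arrays of epfl4 epfl6 lay entirely above WT for 6 of the 7 genes and below for 1, where 23.0% of probe sets lay above and 21.4% below, 44.4% in all. The 7 genes had a median log2 difference of 0.55 for er-2, set beside 0.01 over all probe sets, and of 0.32 for epfl4 epfl6, set beside −0.00075. The 7 genes were chosen with earlier results of these data known. Counts and medians above those of the whole array may therefore follow from the choice, and they are no test of the 7 genes as a set. The WT arrays serve in both comparisons, so the 2 sets of differences are not independent of each other.

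**Figure D1:**
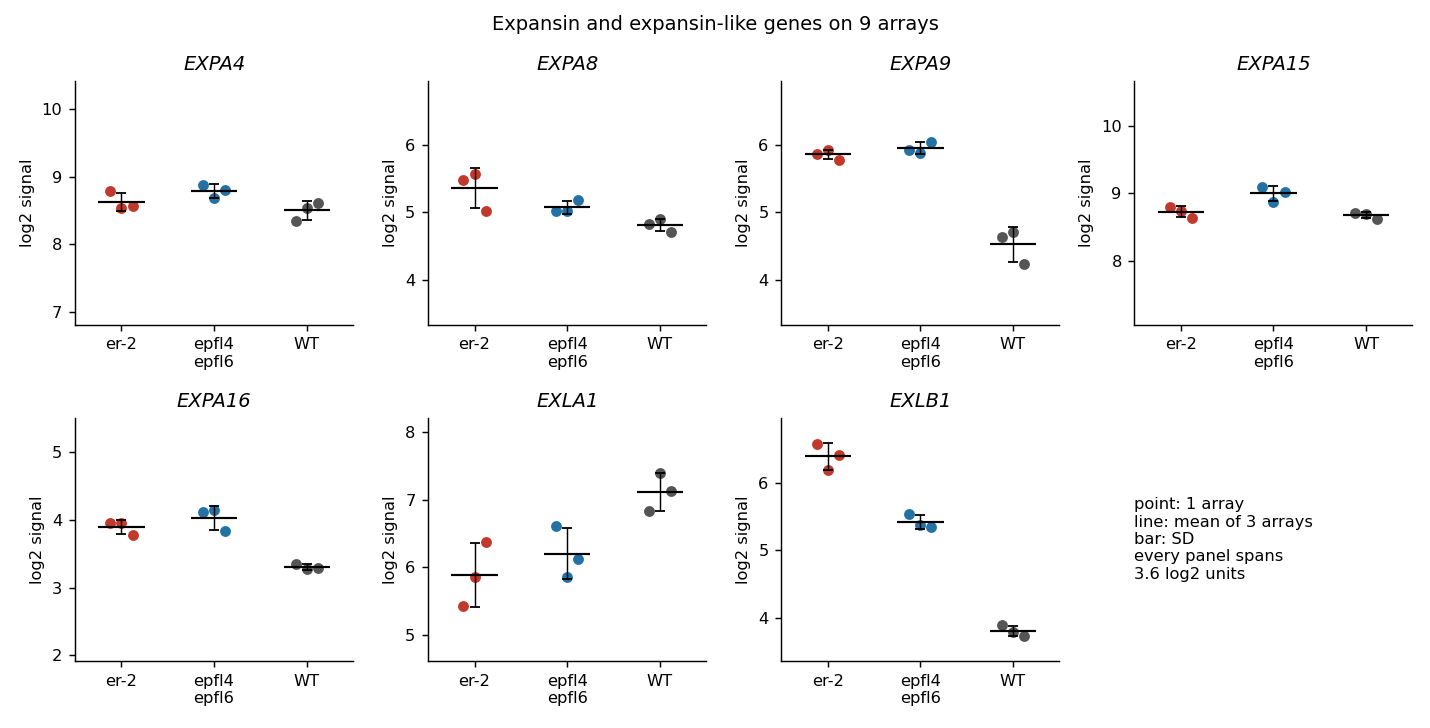
The log2 signal of each of the 7 genes (vertical axis, every panel spanning the same range) on each array (points), by genotype, with the mean of 3 arrays (line) and its SD (bar). EXLB1 is set apart in all 3 genotypes, at 6.18 to 6.58 in er-2, 5.34 to 5.55 in epfl4 epfl6 and 3.74 to 3.89 in WT, whereas EXLA1 is highest in WT and varies most within a genotype.

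EXLB1, the expansin-like gene of the B family, had the largest change of the 7. Its log2 signal was 6.58, 6.18 and 6.41 in er-2, 5.55, 5.38 and 5.34 in epfl4 epfl6, and 3.89, 3.79 and 3.74 in WT. The 3 genotypes did not overlap, with er-2 highest and WT lowest. The rise in er-2 was 2.58 ± 0.101 on the log2 scale (SE, 3 arrays per genotype; limma adjusted p = 4.01e-07), or 5.99-fold with a 95% interval from 5.12 to 7.01. In epfl4 epfl6 it was 1.61 ± 0.101 (adjusted p = 1.05e-05), or 3.06-fold with an interval from 2.61 to 3.58. By size of change in either direction EXLB1 ranked 18 of 22746 probe sets for er-2 and 143 for epfl4 epfl6. The lowest er-2 array lay 2.29 above the highest WT array, and the SD within a genotype was 0.0761 to 0.199.

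EXPA9, an α-expansin gene, rose in both mutants. It was at 5.87, 5.92 and 5.78 in er-2, at 5.92, 5.88 and 6.04 in epfl4 epfl6, and at 4.63, 4.71 and 4.24 in WT. The mutants overlapped each other and stood clear of WT, by 1.07 for er-2 and by 1.17 for epfl4 epfl6 between the nearest arrays. The rise was 1.33 ± 0.114 in er-2 (SE; limma adjusted p = 6.35e-05), or 2.51-fold with an interval from 2.10 to 2.99. In epfl4 epfl6 it was 1.42 ± 0.114 (adjusted p = 3.17e-05), or 2.68-fold with an interval from 2.24 to 3.19. WT replicate 3 was the lowest array, and without it the rises were 1.18 and 1.27, both still called.

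EXPA16, another α-expansin gene, rose less and from a low signal. It was at 3.95, 3.95 and 3.77 in er-2, at 4.11, 4.15 and 3.83 in epfl4 epfl6, and at 3.35, 3.27 and 3.30 in WT. The mutants overlapped each other but not WT, where 1 of the 3 arrays lay below that array's lower quartile of all probe sets, which was 3.22 to 3.33 over the arrays. Signal over background was not tested, and a log2 difference between signals this low may understate the change. The rise was 0.59 ± 0.0907 in er-2 (SE; limma adjusted p = 0.00168) and 0.73 ± 0.0907 in epfl4 epfl6 (adjusted p = 0.000269), or 1.50-fold and 1.65-fold.

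EXPA8, also an α-expansin gene, was called in er-2 only, although the difference between the mutants did not pass the test (limma adjusted p = 0.162). Its log2 signal was 5.49, 5.57 and 5.02 in er-2, 5.02, 5.02 and 5.19 in epfl4 epfl6, and 4.82, 4.90 and 4.71 in WT. All 6 mutant arrays lay above the 3 WT arrays, and the third er-2 array and the first and second of epfl4 epfl6 carried the same deposited value, 5.02. The rise in er-2 was 0.55 ± 0.130 (SE; adjusted p = 0.0149), and the difference in epfl4 epfl6 was 0.26 ± 0.130 (adjusted p = 0.152, with an interval from −0.03 to 0.55). The call in er-2 was lost without WT replicate 3 (adjusted p = 0.0519), er-2 replicate 1 (0.0600) or er-2 replicate 2 (0.0522). In epfl4 epfl6 the gene was called in the fit on the 6 arrays compared (adjusted p = 0.0367).

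EXPA15 and EXPA4 are 2 further α-expansin genes, and each was called against WT in epfl4 epfl6 and not in er-2. For EXPA4 the difference between the mutants did not pass the test (limma adjusted p = 0.289). EXPA15 was at 8.80, 8.74 and 8.64 in er-2, at 9.09, 8.88 and 9.03 in epfl4 epfl6, and at 8.71, 8.69 and 8.63 in WT, so that er-2 overlapped WT and epfl4 epfl6 lay above both. Its log2 difference from WT was 0.05 in er-2 (limma adjusted p = 0.681, with an interval from −0.11 to 0.21), and it rose by 0.32 ± 0.0721 in epfl4 epfl6 (SE; adjusted p = 0.00651). EXPA4 was at 8.78, 8.53 and 8.57 in er-2, at 8.88, 8.68 and 8.80 in epfl4 epfl6, and at 8.34, 8.54 and 8.61 in WT. The epfl4 epfl6 arrays cleared the highest WT array by 0.07, less than the SD within WT of 0.139, and er-2 overlapped both other genotypes. The rise of EXPA4 in epfl4 epfl6 was 0.29 ± 0.0945 (adjusted p = 0.0407), and in er-2 the difference was 0.13 (adjusted p = 0.395, with an interval from −0.08 to 0.34). This call of EXPA4 was lost with quantile normalization again (adjusted p = 0.137), with the replicate number as a block (0.0630), and without WT replicate 1 (0.139), WT replicate 2 (0.0673), epfl4 epfl6 replicate 1 (0.131) or epfl4 epfl6 replicate 3 (0.102).

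EXLA1, of the expansin-like A family, was the 1 gene of the 7 to fall. Its log2 signal was 5.44, 5.86 and 6.38 in er-2, 6.61, 5.87 and 6.13 in epfl4 epfl6, and 6.83, 7.39 and 7.13 in WT. The mutants overlapped each other and both lay below WT, by 0.22 between the nearest arrays of epfl4 epfl6 and WT and by 0.45 for er-2. The fall was 1.22 ± 0.251 on the log2 scale in er-2 (SE; limma adjusted p = 0.00734), a level 2.34-fold lower with an interval from 1.58 to 3.45. In epfl4 epfl6 the log2 difference was −0.91 ± 0.251 (adjusted p = 0.0181), a level 1.88-fold lower with an interval from 1.28 to 2.78. EXLA1 had the widest spread of the 7 genes, with a pooled SD within genotypes of 0.385, above that of 98.7% of all probe sets, whose median was 0.103. Its call in epfl4 epfl6 was lost where the variance was fitted with a trend and robustly (adjusted p = 0.0524), and without WT replicate 2 (0.0671), epfl4 epfl6 replicate 2 (0.0678) or epfl4 epfl6 replicate 3 (0.0620), whereas the call in er-2 held without any 1 array (0.0308 at most).

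**Figure D2:**
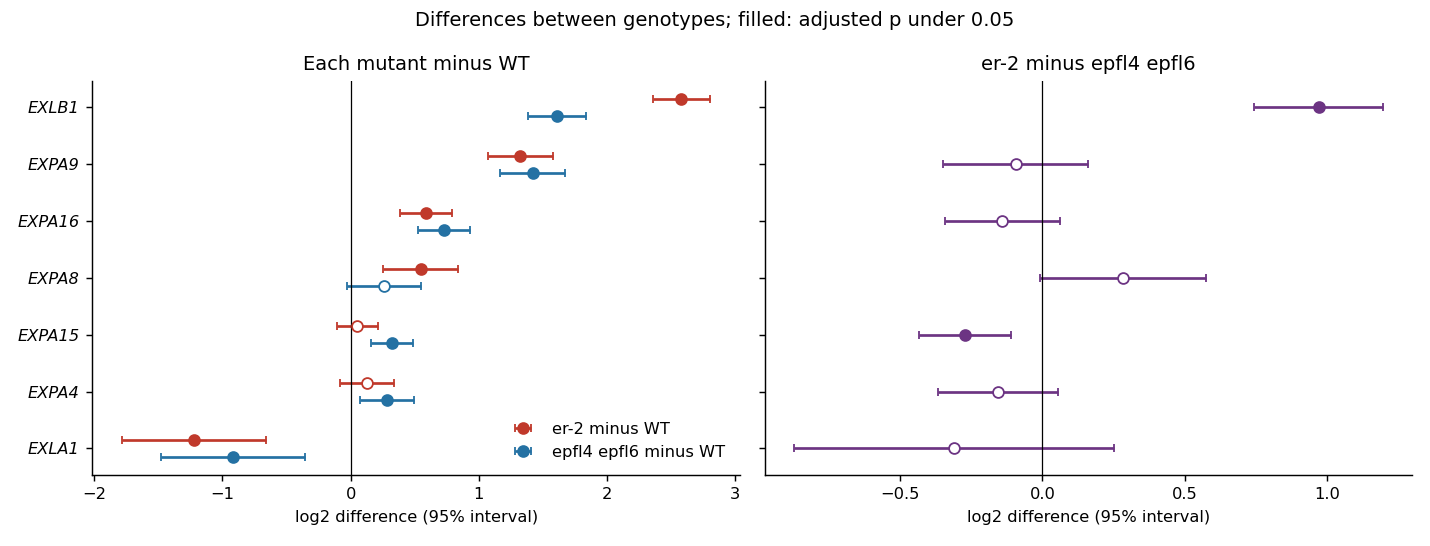
Left, log2 difference of er-2 and of epfl4 epfl6 from WT for the 7 genes (limma estimate with 95% interval). Right, er-2 minus epfl4 epfl6. Filled points passed an adjusted p of 0.05 over all probe sets. Only EXLB1, at 0.97, and EXPA15, at −0.27, are filled on the right.

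The comparison of er-2 with epfl4 epfl6 sets the receptor mutant beside the mutant of 2 genes for its ligands. EXLB1 was higher in er-2 and EXPA15 was lower, 1 call in each direction among the 7, against 10.2% and 10.0% of all probe sets and 20.2% in all. For these 2 genes alone the arrays of the mutants did not overlap, a state found in 19.2% of probe sets with er-2 above, 17.2% with er-2 below and 36.5% in all. EXLB1 was 0.97 ± 0.101 higher in er-2 than in epfl4 epfl6 (SE; limma adjusted p = 0.000307), or 1.96-fold with an interval from 1.68 to 2.29. EXPA15 differed by −0.27 ± 0.0721 (adjusted p = 0.0255). That call was lost without er-2 replicate 2 (adjusted p = 0.0623) or 3 (0.0854), and without epfl4 epfl6 replicate 1 (0.0872) or 3 (0.0765). For the other 5 genes the test did not separate the mutants. The intervals of the log2 difference ran from −0.35 to 0.16 for EXPA9 and from −0.34 to 0.06 for EXPA16. They ran from −0.37 to 0.05 for EXPA4, from −0.01 to 0.57 for EXPA8 and from −0.87 to 0.25 for EXLA1. Without er-2 replicate 3, whose EXPA8 signal was the lowest of that genotype, EXPA8 was 0.45 higher in er-2 than in epfl4 epfl6 and was called (adjusted p = 0.00875).

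The estimates moved to different degrees when the 3′ minus 5′ index of the control transcripts entered the fit. EXLB1 kept a rise of 2.53 ± 0.204 in er-2 (SE; limma adjusted p = 0.000736), and its difference was 1.48 ± 0.438 in epfl4 epfl6, with no call (adjusted p = 0.281). EXPA9 rose by 0.89 ± 0.156 in er-2 (adjusted p = 0.0229), but in epfl4 epfl6 its difference was 0.37 ± 0.336 (adjusted p = 0.761). For EXPA16 the differences were 0.52 in er-2 (adjusted p = 0.171) and 0.58 in epfl4 epfl6 (0.670), and for EXLA1 −1.30 (0.228) and −1.10 (0.783), close in size to those without the index but not called. EXPA8 came to 0.13 (0.823) for er-2 and −0.74 (0.622) for epfl4 epfl6, EXPA15 to −0.12 (0.706) and −0.10 (0.929), and EXPA4 to 0.07 (0.914) and 0.13 (0.942). With the index, standard errors of the 7 genes grew 1.37 to 2.04 times in er-2 and 2.94 to 4.37 times in epfl4 epfl6. The index itself did not overlap between any of the 3 genotypes. Between the mutants no gene of the 7 was called with it: EXLB1 was 1.05 ± 0.272 higher in er-2 (adjusted p = 0.155), and EXPA15 differed by −0.02 ± 0.170 (0.972).

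**Figure D3:**
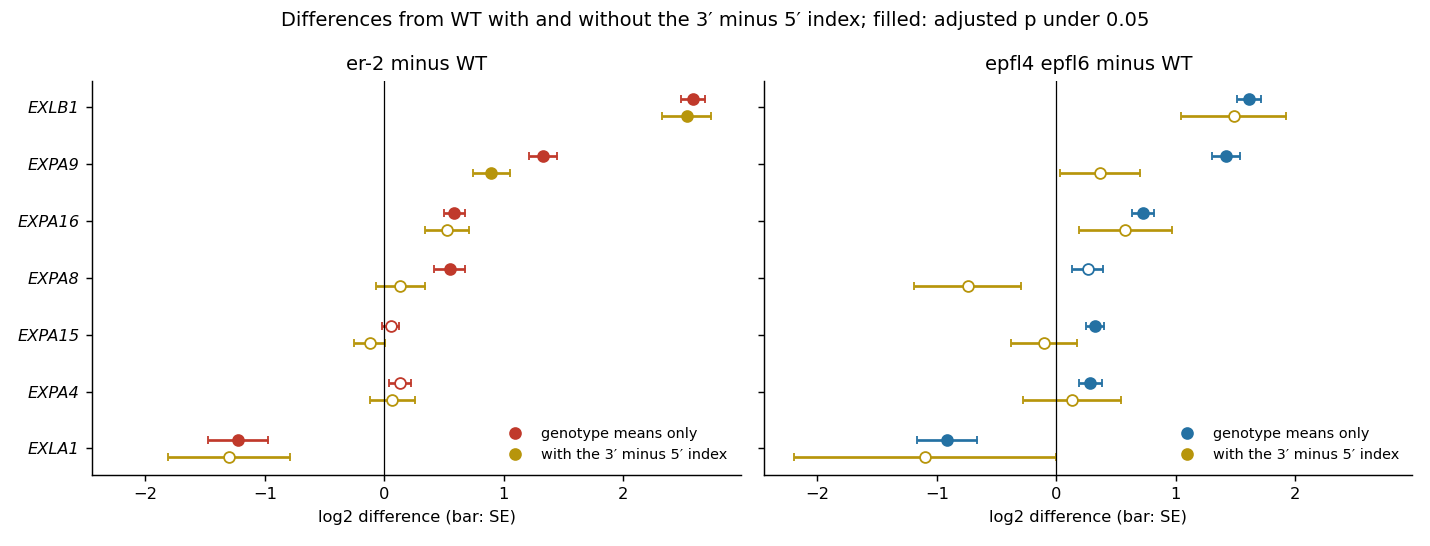
Log2 difference from WT (limma estimate with SE) for the 7 genes in er-2 (left) and epfl4 epfl6 (right), with genotype means only and with the 3′ minus 5′ index of control transcripts in the fit. Filled points passed an adjusted p of 0.05. With the index EXLB1 is at 2.53 in er-2, still called, and at 1.48 in epfl4 epfl6, no longer called, and EXPA9 in epfl4 epfl6 comes to 0.37.

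The table held 12 more probe sets assigned to 1 expansin gene each, which makes 19 with the 7 above. Among these 12 only EXLA2 was called in er-2, lower, and in epfl4 epfl6 EXLA2 was lower and EXPB3 higher. These are 1 and 2 of 12, where 20.8% and 33.9% of all probe sets were called. No other expansin was called higher in er-2, where 1 of the 12, EXLA2, had an unadjusted p under 0.05. EXPA21, EXPA24, EXPB5, EXLA3 and EXLB2 lay below the lower quartile on all 9 arrays, EXPA7 on 8 and EXPA18 on 7. Signal over background was not tested, so the absence of a call in these genes does not show an absence of change. EXLA2 (AT4G38400), the second gene of the EXLA family, was at 6.63, 6.70 and 6.87 in er-2, at 6.63, 6.53 and 6.64 in epfl4 epfl6, and at 7.34, 7.24 and 7.48 in WT. Both mutants lay below WT on every array. The fall was 0.62 ± 0.0839 in er-2 (SE; limma adjusted p = 0.000769), and in epfl4 epfl6 the log2 difference was −0.75 ± 0.0839 (adjusted p = 0.000142). With the index in the fit it was −0.36 in er-2 (adjusted p = 0.199) and −0.11 in epfl4 epfl6 (0.931). EXLA3, which lies next to EXLA1 on chromosome 3 with 1 annotated gene between them, was below the lower quartile of all 9 arrays and had differences from WT of 0.02 for er-2 and 0.06 for epfl4 epfl6.

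EXPB3 (AT4G28250), a β-expansin gene, was at 8.48, 8.37 and 8.15 in er-2, at 8.98, 8.61 and 8.79 in epfl4 epfl6, and at 8.28, 8.36 and 8.25 in WT. It rose by 0.49 ± 0.107 in epfl4 epfl6 (SE; limma adjusted p = 0.00544), had a difference of 0.04 in er-2 (adjusted p = 0.859), and was 0.46 lower in er-2 than in epfl4 epfl6 (log2 difference −0.46, adjusted p = 0.0143). EXPB3 thus joined EXPA15 on the side of genes higher in epfl4 epfl6 than in er-2. With the index the difference from WT in epfl4 epfl6 was −0.33 (adjusted p = 0.806), and er-2 minus epfl4 epfl6 was 0.0287 (0.969). EXPB1 had log2 differences of −0.19 (er-2) and 0.20 (epfl4 epfl6), neither called (adjusted p = 0.344 and 0.273). Between the mutants its arrays did not overlap, and er-2 minus epfl4 epfl6 was −0.39, not called (limma adjusted p = 0.0570). That adjusted p was 0.0222 to 0.155 over the alternatives without the index, some of which called it, and 0.851 with the index. EXPA7, a gene known from root hairs, differed by 0.15 and 0.32 (adjusted p = 0.414 and 0.0548) at a signal below the lower quartile on 8 of 9 arrays. In epfl4 epfl6 it stayed uncalled in 7 of 12 alternatives without the index. It gained a call in the others, among them quantile normalization again (limma adjusted p = 0.0313) and median centring (0.0398), but not with the index (0.683).

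**Figure D4:**
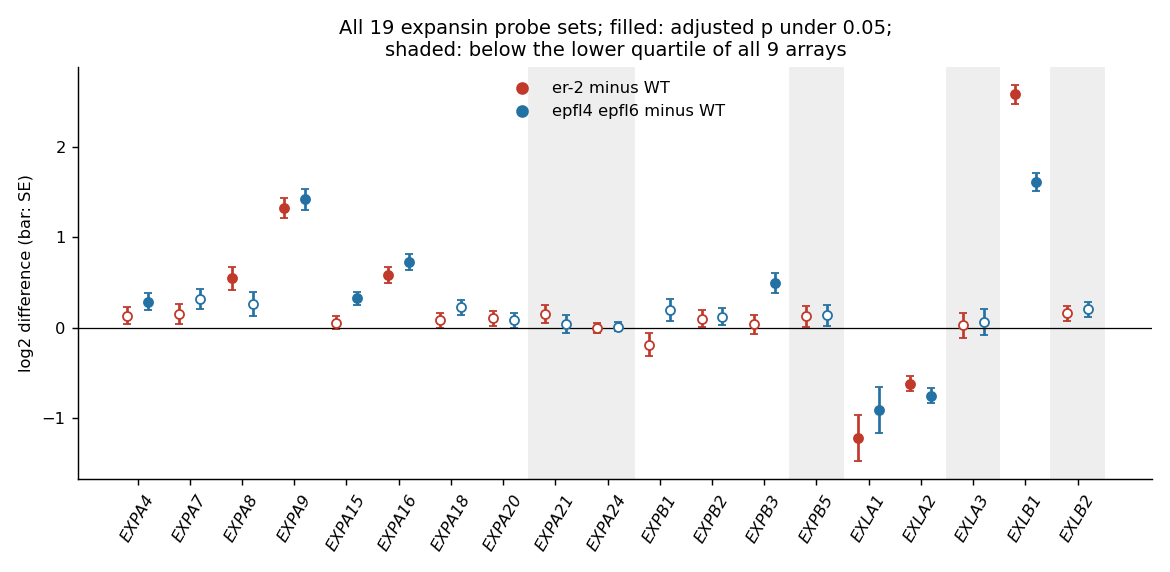
Log2 difference from WT (limma estimate with SE) of all 19 expansin probe sets in er-2 and epfl4 epfl6, ordered by family, with filled points at an adjusted p under 0.05. Shaded genes lay below the lower quartile on all 9 arrays. EXLA1 and EXLA2 lie below 0 in both mutants, and EXLB1 and EXPA9 lie highest.

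Of 10 measured XTH genes, whose enzymes cut and rejoin xyloglucan chains, er-2 had 1 higher and 2 lower, and epfl4 epfl6 had 2 higher and 1 lower. These are 3 of 10 in each, near the 20.8% and 33.9% of all probe sets called. The 10 had a median log2 difference of −0.0026 for er-2 and −0.05 for epfl4 epfl6. Of them, XTH20, XTH21, XTH26 and XTH29 lay below the lower quartile on all 9 arrays, XTH19 on 7 and XTH18 on 6. The share called and the median thus rest in part on probe sets of low signal, where the absence of a call does not show an absence of change. In er-2, XTH32 rose by 0.72 (limma adjusted p = 0.000201), and its rise in epfl4 epfl6 was 1.08 (1.72e-05), and EXGT-A3 (XTH27) fell by 0.23 in er-2 (0.0440) and had a log2 difference of −0.43 in epfl4 epfl6 (0.00108). The er-2 call of EXGT-A3 was lost in 8 alternatives. XTH16 fell by 0.47 in er-2 alone (0.00278), and XTH19 rose by 1.07 in epfl4 epfl6 alone (0.00989), both with a difference between the mutants that passed the test (0.0113 and 0.00869). With the index XTH32 was still called in er-2 (0.0383) but not in epfl4 epfl6 (0.254), XTH16 in er-2 was not called (0.0503), and XTH19 in epfl4 epfl6 came to −0.40 (0.926). EXGT-A3 was called in neither mutant with the index (0.672 in er-2, 0.840 in epfl4 epfl6). Of a list on wall acidification and synthesis, 3 genes were measured. COB, for a protein that orients cellulose, differed by 0.20 in er-2 (adjusted p = 0.0317), and of the wall-sensing receptor kinase genes THE1 had a log2 difference of −0.23 in er-2 (0.0240) and FER one of −0.29 in epfl4 epfl6 (0.00772). In the other mutant the log2 differences were 0.12 for COB and −0.10 for THE1 (epfl4 epfl6) and −0.10 for FER (er-2), none called, but the difference between the mutants did not pass the test for COB (0.390), THE1 (0.179) or FER (0.0837). The call of COB was lost in 9 alternatives, among them quantile normalization again (0.104), the replicate block (0.0605), the 6 arrays compared (0.0522) and the index (0.581), and leaving out any array but WT replicate 2. The call of THE1 was lost without WT replicate 1 (0.0820) or 3 (0.0563), without er-2 replicate 1 (0.0917) or 2 (0.0680), and with the index (0.603). FER was not called with the index (0.478).

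The probe sets with the most similar pattern over the 9 arrays were sought for EXLB1, EXPA9, EXPA16 and EXLA1 among 13506 others with 1 gene, by the root mean square difference of log2 deviations from each probe set's own mean. The nearest to EXLB1 was AT3G28270, at 0.227, where the deviations of EXLB1 itself had a root mean square of 1.07, followed by AT1G73040 (0.310) and AT1G67860 (0.324). AT3G28270 rose by 2.31 for er-2 and by 1.50 for epfl4 epfl6. It was picked for its likeness to EXLB1 on these arrays, so its rises follow from the search and are no separate test. The nearest to EXPA9 were the carboxypeptidase-like gene scpl31 (0.144), AT3G18280 (0.165) and AT3G53980 (0.166), with 0.662 for EXPA9 itself. For EXPA16, at 0.329, they were the chaperonin subunit gene Cpn60beta4 (0.0862), AT1G48570 (0.0939) and AT5G06610 (0.0940). The matches of EXLA1, at 0.607, were looser in proportion: AT1G53430 (0.232), AT4G34150 (0.259) and AT4G20320 (0.264). All 9 values of each gene share the arrays and the 3 genotypes.

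**Figure D5:**
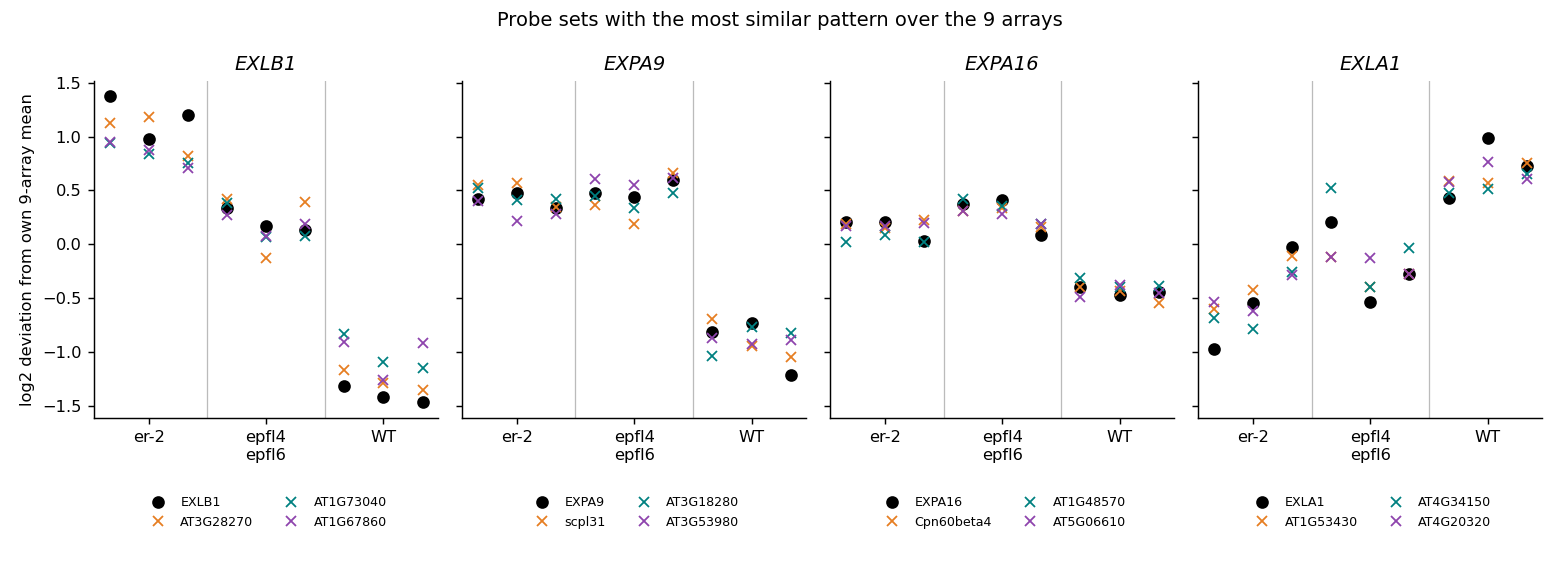
Log2 deviation from each probe set's own mean over 9 arrays, by genotype with 1 column of points per array, for EXLB1, EXPA9, EXPA16 and EXLA1 (filled circles) and the 3 most similar probe sets with 1 gene (crosses). For EXLB1 the crosses step down across the genotypes, and for EXPA9 and EXPA16 they set both mutants above WT.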

How the data were processed

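Biotin-labelled cRNA from total RNA was hybridised to 9 Affymetrix arrays of 1 colour. The authors deposited 1 log2 value for each probe set on each array, and RMA and limma are named per the submitters' processing notes, without versions. Array medians were 5.82 to 5.91, and no further normalization was applied. Of 22810 probe sets, 64 controls were left out. Genes came from the platform's annotation (13513 tested probe sets with 1 gene, 503 with several, 8730 not listed), with 13436 symbols brought up to date by Entrez identifier from RefSeq (TAIR10.1), whose table gave only names, chromosomes and gene order. EXLB2 was matched by synonym.

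limma 3.58.1 in R 4.3.3 took the 9 arrays together, estimating each genotype's mean with moderated variances. Tests were two-sided, with Benjamini-Hochberg adjustment over 22746 probe sets, and calls needed an adjusted p under 0.05. The fit was tested on simulated data. The number of arrays limits the precision. Named are the 7 genes, up to 4 members of each of 3 wall gene lists by smallest p, and the 3 most similar probe sets of 4 genes. The genes, lists and markers were chosen with earlier results of these data known. The phloem and endodermis markers, 3 of 6 and 2 of 5 measured, had mean log2 signals of 6.40 to 6.46 and 5.76 to 5.94 in er-2, 6.11 to 6.19 and 5.76 to 5.81 in epfl4 epfl6, and 6.06 to 6.18 and 5.79 to 5.92 in WT, and none of 5 pollen markers was measured. These means hide opposite changes: against WT the phloem genes SWEET11 and CLE44 differed by 1.75 and −1.12 in er-2 and by 0.46 and −0.78 in epfl4 epfl6, all called, and the endodermis genes AT5G41920 and JKD by 0.39 and −0.33 in er-2 and by 0.26 and −0.37 in epfl4 epfl6, called except JKD in er-2. Alternatives were a second quantile normalization, centring on array medians, omission of the dimmest 30%, trended robust variances, weighting of arrays, a block for the replicate number, fits on the 6 arrays compared, the 3′ minus 5′ index as a covariate, and each array left out in turn. The other wall genes were put through these alternatives by a choice made after seeing the data.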

Additional observations from a re-analysis of the deposited data

Results flagged for a closer look

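For 6 of the genes named, er-2 and epfl4 epfl6 differed from each other when compared directly (limma, adjusted over all probe sets). Of all probe sets, 20.2% were called in this comparison. The genes from the wall lists were named by their smallest p in any comparison, this one included, so the count follows in part from that choice. None of these 6 differences was called with the 3′ minus 5′ index of RNA quality in the fit, as given at the end. EXLB1 was higher in er-2 than in epfl4 epfl6 by 0.97 ± 0.101 on the log2 scale (SE; adjusted p = 0.000307). The other 5 were lower in er-2 than in epfl4 epfl6. XTH19 differed by −1.25 ± 0.261 (adjusted p = 0.00869), at a signal below the lower quartile on 7 of 9 arrays. EXPB3 differed by −0.46 ± 0.107 (adjusted p = 0.0143), XTH32 by −0.36 ± 0.0753 (0.00836), XTH16 by −0.36 ± 0.0801 (0.0113) and EXPA15 by −0.27 ± 0.0721 (0.0255). The 3 arrays of er-2 lay fully on one side of the 3 of epfl4 epfl6 for each of the 6, which held for 36.5% of all probe sets in this comparison. The 6 were picked by their call in this comparison, so this separation follows largely from the choice and is no separate support. With the index the adjusted p was 0.155 for EXLB1, 0.843 for XTH19, 0.969 for EXPB3, whose sign turned, 0.429 for XTH32, 0.874 for XTH16 and 0.972 for EXPA15. The call of EXPA15 was also lost without er-2 replicate 2 or 3, or without epfl4 epfl6 replicate 1 or 3 (adjusted p of 0.0623 to 0.0872).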

How the results depend on the processing

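Apart from the index of RNA quality, the 13 alternatives of each comparison left the counts of the 7 genes called at 4 to 5 (main 5) in er-2 and at 4 to 7 (main 6) in epfl4 epfl6, both against WT. Between the mutants the count was 1 to 2 (main 2), with 1 and 2 as the lowest and highest on leaving out 1 array. Fits with the index as a covariate called 648 probe sets and 2 of the 7 genes in er-2 against WT, 1 and 0 in epfl4 epfl6 against WT, and 66 and 0 between the mutants (limma; at an unadjusted p under 0.05, 4, 1 and 3 of the 7 genes), where 4722, 7707 and 4587 probe sets were called without it. In these fits the log2 difference changed sign in er-2 against WT for EXPA15 (−0.12) and EXPB3 (−0.30). It changed sign in epfl4 epfl6 against WT for EXPA8 (−0.74), EXPA15 (−0.10), EXPB3 (−0.33), EXPB1 (−0.13), XTH19 (−0.40), THE1 (0.10) and COB (−0.0149), and between the mutants for EXPA9 (0.53), EXLA2 (−0.25) and EXPB3 (0.0287). No value of changed sign was called in the index fits. The difference of EXPB3 in er-2 against WT, never called, was −0.0069 with quantile normalization again and −0.0361 to 0.126 on leaving out 1 array, the lowest without er-2 replicate 1. Of 750 recomputed differences of single genes, 661 kept direction and call, 58 lost a call, 17 gained one and 14 changed sign; EXPA7 and XTH19 had no value without the dimmest 30%. The labels share only a replicate number: deviations of same-numbered arrays correlated at −0.19 to 0.29, and with the replicate block 4367, 7449 and 4248 probe sets and 5, 5 and 2 of the 7 genes were called in the 3 comparisons. Median centring gave 4951 higher and 2922 lower calls in epfl4 epfl6 against WT, against 4079 and 3628. Causes were not tested, and signal over background was not measured, a limit for genes of low signal such as XTH19, EXPA7 and EXPA16, below the lower quartile on 7, 8 and 1 of 9 arrays.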
